A study of Mus musculus with 11 samples.

Results

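The ATP4B-DTR mice carry a diphtheria toxin receptor (DTR) under the name of Atp4b, a gene of the acid-secreting parietal cell, in a series of engineered lines made to ablate chief and parietal cells. The comparison is between the 3 ATP4B-DTR samples and the 2 wild-type (WT) controls, chosen by the genotype label, which makes 5 of the 11 samples of the series. All are bulk RNA sequencing libraries of mouse gastric corpus mucosa. The other lines, GIF-DTR and GIF/ATP4B-DTR, with 3 samples each, entered the model that estimated the spread between samples, and GIF-DTR was also compared directly with ATP4B-DTR. The labels give no strain, age, sex, toxin treatment, dose or time of collection for any group, and do not say whether the receptor was inserted into Atp4b itself or added as a transgene. They also do not say that each sample is a separate animal, so that p-values measure the spread between these samples.

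Parietal cells pump protons into the gland lumen with an exchanger of hydrogen and potassium ions, which uses large amounts of ATP. The cells are packed with mitochondria and carry the channels, anion exchangers and receptors that feed and control the pump. They also release growth factors and other signals that act on neighbouring cells of the gland, and in mice their loss is known to be followed by proliferation and by a metaplastic lineage called SPEM (spasmolytic polypeptide-expressing metaplasia).

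Library totals ranged from 20689262 to 27946423 estimated counts over the 5 samples, and levels are given as counts scaled to library size with TMM factors (CPM), always in the order control 1, control 2 and then ATP4B-DTR 1, 2 and 3. At these depths a level of 3 counts lies between 0.124 and 0.166 CPM in these libraries. The controls differed from each other in stromal and chief cell genes. The summed level of 9 smooth muscle markers was 410 CPM in control 1 and 2324 CPM in control 2, and that of 10 chief cell markers was 108339 and 225964 CPM. The ATP4B-DTR samples differed in Y-linked transcripts: Ddx3y was at 42.7 CPM in control 1, 40.9 CPM in control 2, 52.2 CPM in ATP4B-DTR 1 and 0 and 1 counts in ATP4B-DTR 2 and 3. The controls also stood apart from all the engineered lines: 8 features had at least 20 counts in both controls and 0 in each of the other 9 samples, and for no line was there such a feature. They include, picked out after their values were seen, the unprocessed pseudogene Gm28438, at 963 and 707 CPM in the controls, and the processed pseudogenes Gm10359, at 275 and 161 CPM, and Rps6-ps4, at 34.5 and 52.9 CPM. The labels do not say whether the controls were sequenced or counted in another way, and for every comparison with them such a difference cannot be told apart from genotype. The comparison with GIF-DTR takes no level from the controls. Y-linked expression differed there too, with Ddx3y at 0, 0.0787 and 0.0794 CPM in GIF-DTR 1, 2 and 3, far below ATP4B-DTR 1. For the differences between the controls every comparison was also made against each control alone, with the spread taken from the other groups and the lone control assumed to vary as they do. Counts of Acadsb, Bckdha, E2f1, Etfb, Gclm, Gstm3, Hibch, Hmga1, Hrh2, Kcnj15, Kcnj16, Krt7, Lpl, Mccc1, Pdk4, Pfkfb3, Pigr, Pola1, Rbl2, Rrm1, Slc4a2, Slc7a11 and Tyms were fractional in more than 5 of the 11 samples, as happens when reads are shared with another gene, so that their levels are less certain.

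Over all 14889 genes tested, 1813 were higher in ATP4B-DTR (12.2% of those tested) and 1398 were lower (9.39%) at an adjusted p under 0.05. Of these, 1356 differed at least 2-fold, 775 higher and 581 lower. Against control 1 alone 542 genes were higher (3.51% of those tested) and 773 lower (5.0%), whereas against control 2 alone 1309 were higher (8.43%) and 835 lower (5.38%), and 0 genes were called in opposite directions. A core of 924 genes (6.21%) was called against both controls together and against each alone, in the same direction, with 464 higher and 460 lower. The samples of the groups did not overlap in 7225 genes (48.5% of those tested), called or not, so that separation of 3 samples from 2 is common here. The shares of 12.2% higher and 9.39% lower are the background for every count of list members against both controls given below.

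**Figure D1:**
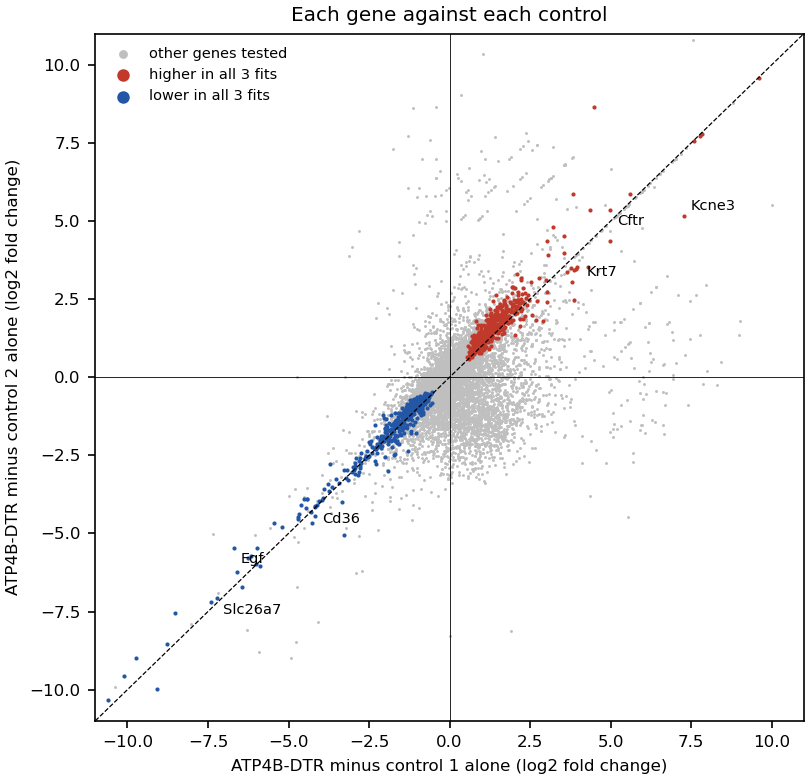
Log2 fold change of each gene in ATP4B-DTR against control 1 alone (horizontal) and control 2 alone (vertical), with a dashed line of equality; 6 genes lie beyond the axes at 11. The 924 coloured genes, called in all 3 fits, lie near the line, and the grey cloud spreads above and below it.

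The proton pump was much lower in ATP4B-DTR but was still expressed. Atp4b, the beta subunit (chr8:13386205-13396825, minus strand, mm10), measured 4786 and 4365 CPM in the 2 controls and 475, 641 and 683 CPM in ATP4B-DTR (log2 fold change -2.93 ± 0.38 (SE), adjusted p = 0.000836), a 7.63-fold lower level. Atp4a, the catalytic alpha subunit (chr7:30712209-30725534, plus strand), stood at 11690 and 11129 CPM and at 2302, 2188 and 3352 CPM (log2 fold change -2.13 ± 0.32 (SE), adjusted p = 0.00146). Every ATP4B-DTR sample lay below both controls for both subunits, and the labels of the line were matched by its parietal genes. Slc26a7, a chloride transporter and chloride-bicarbonate exchanger of the parietal cell (chr4:14502430-14621805, minus strand), went much further down, from 78.3 and 71.4 CPM to 0.233, 0.395 and 0.911 CPM (log2 fold change -7.15 ± 0.58 (SE), adjusted p = 0.000125). It was 142-fold lower, against 4.36-fold for Atp4a, with no overlap between the groups. In bulk tissue, fewer parietal cells and less of a transcript in each parietal cell cannot be told apart.

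Of 16 tested genes for acid secretion ion transport, 10 were lower and 0 higher in ATP4B-DTR, with a median log2 fold change of -1.23 against -0.01 over all genes tested. The median was -1.22 against control 1 alone and -1.03 against control 2 alone. Among the anion carriers, Slc4a2, the basolateral chloride-bicarbonate exchanger, fell from 836 and 702 CPM to 226, 249 and 274 CPM (log2 fold change -1.62 ± 0.18 (SE), adjusted p = 0.000336). Slc26a9, a chloride channel of gastric epithelium, fell from 474 and 301 CPM to 71.4, 131 and 159 CPM (log2 fold change -1.68 ± 0.33 (SE), adjusted p = 0.00552). For both genes the samples of the groups did not overlap, and ATP4B-DTR 1 was the lowest.

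The potassium supply to the pump did not move as one. Kcnj16, an inward rectifier, fell from 625 and 481 CPM to 67.8, 146 and 135 CPM (log2 fold change -2.25 ± 0.36 (SE), adjusted p = 0.00228), and its relative Kcnj15 fell less (log2 fold change -0.94, adjusted p = 0.00708). The luminal potassium channel that recycles potassium to the pump was not called in either subunit: Kcnq1 read 140 and 144 CPM in the controls and 125, 85.9 and 129 CPM in ATP4B-DTR (log2 fold change -0.33 ± 0.26 (SE), adjusted p = 0.414), and Kcne2 read 200 and 177 and 150, 157 and 181 CPM (log2 fold change -0.21 ± 0.33 (SE), adjusted p = 0.681). The Kcne2 samples overlapped between the groups. The sodium-proton exchanger Slc9a4 (log2 fold change -0.23, adjusted p = 0.466) and the carbonic anhydrase Car2 (0.57, adjusted p = 0.0938) were not called, although for Car2 all 3 ATP4B-DTR samples lay above the controls. The chloride channel protein Clic6 fell (-1.52, adjusted p = 0.00278), as did the sodium-potassium-chloride cotransporter Slc12a2 (-0.63, adjusted p = 0.0148).

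**Figure D2:**
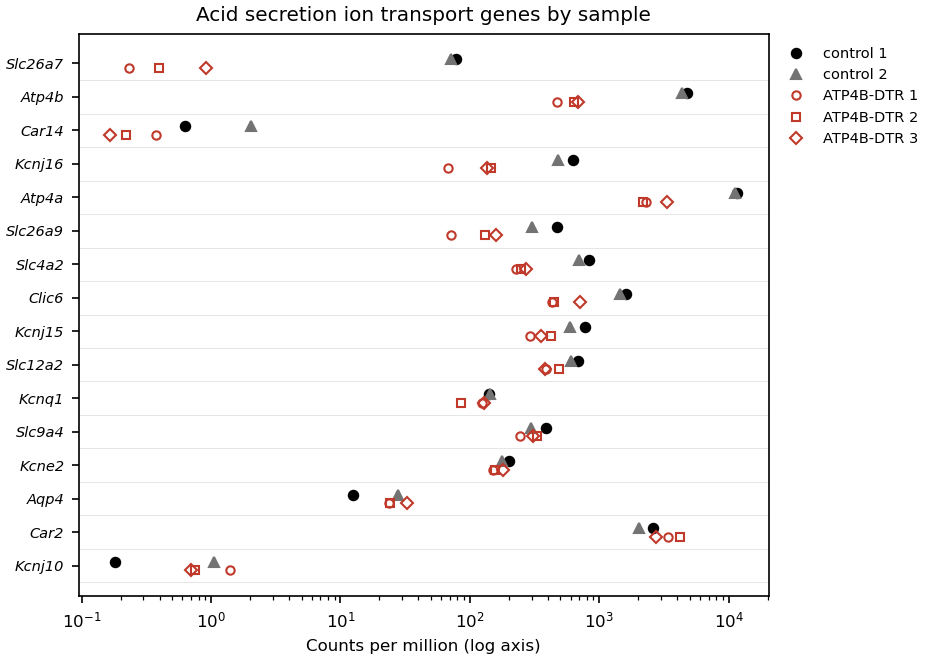
Levels in CPM (log axis) of the 16 acid secretion transport genes in each control (black circle, grey triangle) and each ATP4B-DTR sample (open red symbols), ordered by fold change. Slc26a7 is separated most widely, and the red symbols of Kcne2 and Slc9a4 lie on both sides of the grey triangle of control 2 and below control 1.

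Receptors that switch acid secretion on and off were lower in part. Of 8 tested, 3 were lower (37.5%, next to 9.39% of all genes) and 0 higher. Sstr2, the somatostatin receptor that restrains secretion, fell from 26.7 and 21.5 CPM to 6.01, 4.7 and 6.3 CPM (log2 fold change -2.09 ± 0.2 (SE), adjusted p = 0.000126). Hrh2, the histamine receptor that stimulates it, fell from 64.9 and 51 CPM to 12.8, 17.4 and 20 CPM (log2 fold change -1.79 ± 0.28 (SE), adjusted p = 0.00175), and the muscarinic receptor Chrm3 fell too (log2 fold change -1.17, adjusted p = 0.00259). In all 3 genes each ATP4B-DTR sample was below each control, next to 48.5% of all genes tested with no overlap in either direction. The gastrin receptor Cckbr was not called (log2 fold change 0.96, adjusted p = 0.101), with 3.95 and 3.44 CPM in the controls and 6.84, 5.0 and 9.69 CPM in ATP4B-DTR.

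Several of the genes with the largest falls encode secreted or surface proteins. Egf, an epidermal growth factor, fell from 131 and 55.3 CPM to 1.58, 0.834 and 1.37 CPM (log2 fold change -6.21 ± 0.65 (SE), adjusted p = 0.000517). Hamp2, a hepcidin family member, fell from 114 and 79.2 CPM to 2.05, 1.8 and 1.57 CPM (log2 fold change -5.74 ± 0.38 (SE), adjusted p = 6.57e-05). Apoa1, the main protein of high-density lipoprotein, fell from 1787 and 1473 CPM to 71.7, 96.7 and 77 CPM (log2 fold change -4.32 ± 0.35 (SE), adjusted p = 7.37e-05). The rule that chose these genes required groups that did not overlap. The controls differed from each other by more for Egf than for Apoa1. B4galnt2, a glycosyltransferase that makes the Sd(a) blood group structure, was 64.1-fold lower, from 24.9 and 24.6 CPM to 0.466, 0.263 and 0.414 CPM. Amh, the anti-Müllerian hormone, was 23-fold lower, and the membrane protein Gpr155 22.2-fold lower. Kcne1, an accessory subunit of Kcnq1, was 20.6-fold lower (log2 fold change -4.37 ± 0.48 (SE), adjusted p = 0.00034), and the small G protein Rasd1 was 62.5-fold lower. All of the genes in this paragraph were called against each control alone.

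Immunoglobulin genes were also among the largest falls, and here the controls stood far apart. Igha, the heavy chain of immunoglobulin A, read 16.6 and 278 CPM in the controls and 0.791, 0.263 and 0.58 CPM in ATP4B-DTR (log2 fold change -8.07 ± 2.17 (SE), adjusted p = 0.031). Igkc read 12.4 and 165 and 0.652, 0.307 and 0.414 CPM (log2 fold change -7.59 ± 1.78 (SE), adjusted p = 0.0188), and Jchain 3.86 and 52.6 and 0.512, 0.0878 and 0.0828 CPM (log2 fold change -6.95 ± 1.68 (SE), adjusted p = 0.0206). Control 2 was the highest sample for each, and control 1 still lay above every ATP4B-DTR sample. All 4 tested B and plasma cell genes were lower, but 0 of them were called against control 1 alone, where the log2 fold change of Igha was -4.92 (adjusted p = 0.202). Without ATP4B-DTR 1, 2 or 3 in turn 1, 0 and 1 of the 4 were called. The fit with Y-linked expression as a covariate called 0 of the 4, and the DESeq2 Wald test called 2. In GIF-DTR Igha read 14.9, 0.629 and 1.71 CPM, also below both controls.

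Among solute carriers, 43 of 266 tested genes were lower (16.2%) and 17 higher (6.39%), next to 9.39% and 12.2% of all genes tested. Slc2a4, the insulin-responsive glucose transporter GLUT4, fell from 61.1 and 67.4 CPM to 6.66, 6.1 and 7.79 CPM (log2 fold change -3.23 ± 0.28 (SE), adjusted p = 9.89e-05). Slc7a8, a transporter of neutral amino acids, fell from 129 and 142 CPM to 19.7, 11.9 and 18.5 CPM (log2 fold change -3.02 ± 0.23 (SE), adjusted p = 7.37e-05). Slc16a7, the monocarboxylate carrier MCT2, fell from 353 and 356 CPM to 74.5, 89 and 94.8 CPM (log2 fold change -2.04 ± 0.2 (SE), adjusted p = 0.000157). None of these 3 genes had an ATP4B-DTR sample above a control, and Slc26a6, an anion exchanger, was also lower (log2 fold change -1.97, adjusted p = 0.00643). Of the 7 tested potassium-chloride and related cation-chloride cotransporters of the Slc12 family, 4 were lower, including Slc12a7 (-1.37, adjusted p = 0.000656). The mitochondrial Slc25 carriers had 7 of 42 lower and 1 higher, with Slc25a34 the furthest down (-2.3, adjusted p = 0.000352). Carriers that were higher included the monocarboxylate carrier Slc16a1, MCT1 (log2 fold change 1.03, adjusted p = 0.015), the glutamine carriers Slc1a5 (0.66, adjusted p = 0.00858) and Slc38a1 (1.13, adjusted p = 0.00273), and the folate carrier Slc19a1 (1.11, adjusted p = 0.0157). MCT1 and MCT2 moved in opposite directions. The counts for solute carriers depended on single libraries: 24 were lower and 2 higher against control 1 alone, 19 and 11 against control 2 alone, and 28 and 8 without ATP4B-DTR 1. With Y-linked expression as a covariate 16 were lower and 12 higher. For the Slc25 carriers 4 were lower against control 1 alone, 2 against control 2 alone and 3 without ATP4B-DTR 2.

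Channel genes included some of the largest rises. Kcne3, an accessory potassium channel subunit, was at 0.135 and 0.61 CPM in the controls and at 34.9, 16 and 15 CPM in ATP4B-DTR (log2 fold change 5.94 ± 0.71 (SE), adjusted p = 0.00084). Cftr, the chloride channel mutated in cystic fibrosis, was at 0.359 and 0.277 CPM and at 13.2, 8.78 and 12.9 CPM (log2 fold change 5.15 ± 0.5 (SE), adjusted p = 0.0002). ATP4B-DTR 1 was the highest sample for both genes, and the rule that chose them required groups that did not overlap. Over the families, 2 of 57 potassium channel subunits were higher (3.51%) and 6 lower (10.5%), next to 12.2% and 9.39% of all genes tested, and 6 of 27 chloride channel, calcium-activated chloride channel regulator and anoctamin genes were higher and 6 lower. With control 1 alone 1 of the chloride group was higher, and against control 2 alone 3 of each family were lower. The higher ones included Clca1, a secreted regulator of chloride conductance and mucus, at 127 and 44.1 CPM in the controls and 1822, 3423 and 540 CPM in ATP4B-DTR (log2 fold change 4.49 ± 1.08 (SE), adjusted p = 0.0201), where ATP4B-DTR 3 was well below the other two samples and neither control alone gave a call (adjusted p = 0.127 and 0.053). Clca3b had 0 counts in both controls and 1.4, 0.878 and 1.28 CPM in ATP4B-DTR, at least 7.88-fold higher than the level of 3 counts per control library. The water channel Aqp5 rose from 3.1 and 2.05 CPM to 14.4, 11 and 15.8 CPM (log2 fold change 2.4 ± 0.34 (SE), adjusted p = 0.00116), and Cldn2, a claudin that forms cation pores between cells, from 3 and 2 counts in the controls to 6.1, 3.51 and 10.7 CPM.

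Iron genes moved in both directions. Tfrc, the transferrin receptor that brings iron into cells, rose from 96.6 and 66.1 CPM to 315, 259 and 227 CPM (log2 fold change 1.71 ± 0.28 (SE), adjusted p = 0.00201). Fth1, the ferritin heavy chain that stores it, fell from 1508 and 1365 CPM to 668, 658 and 650 CPM (log2 fold change -1.12 ± 0.18 (SE), adjusted p = 0.00198), and the exporter Slc40a1 fell as well (log2 fold change -1.63, adjusted p = 0.0246). Of 14 tested iron genes, 4 were lower (28.6%, next to 9.39% of all genes) and 1 higher, with a median of -0.3. With Y-linked expression as a covariate 2 were lower and the median was 0.06.

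Transcripts of the mitochondrial genome were lower, and the nuclear genes of the same respiratory complexes were mostly not called. Of 13 mitochondrially encoded proteins 10 were lower and 0 higher, with a median log2 fold change of -1.36. mt-Nd4, a complex I subunit, fell from 11338 and 9493 CPM to 4160, 5105 and 2939 CPM (log2 fold change -1.36 ± 0.3 (SE), adjusted p = 0.0091). mt-Atp8, an ATP synthase subunit, fell furthest, from 1474 and 1175 CPM to 133, 130 and 62.3 CPM (log2 fold change -3.61 ± 0.29 (SE), adjusted p = 7.37e-05). ATP4B-DTR 3 was the lowest sample in both genes. In GIF-DTR mt-Nd4 read 10782, 6079 and 6753 CPM, but mt-Atp8 read 134, 145 and 149 CPM, far below the controls and near ATP4B-DTR, so that for mt-Atp8 the controls stood apart from both lines. Of 80 nuclear-encoded respiratory chain and ATP synthase subunits 4 were lower (5.0%) and 5 higher (6.25%), next to 9.39% and 12.2% of all genes, and their median was 0.09. With control 1 alone 2 were lower and 0 higher, and against control 2 alone 2 and 2. Cox7a1, the cytochrome oxidase subunit isoform best known from heart and skeletal muscle, was one of the 4, at 65.9 and 52.3 CPM in the controls and 10.8, 13 and 11.8 CPM in ATP4B-DTR (log2 fold change -2.31 ± 0.3 (SE), adjusted p = 0.000858). Against control 1 alone 6 of the 13 mitochondrially encoded genes were lower, and with Y-linked expression as a covariate 3 were, with a median of -1.30.

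**Figure D3:**
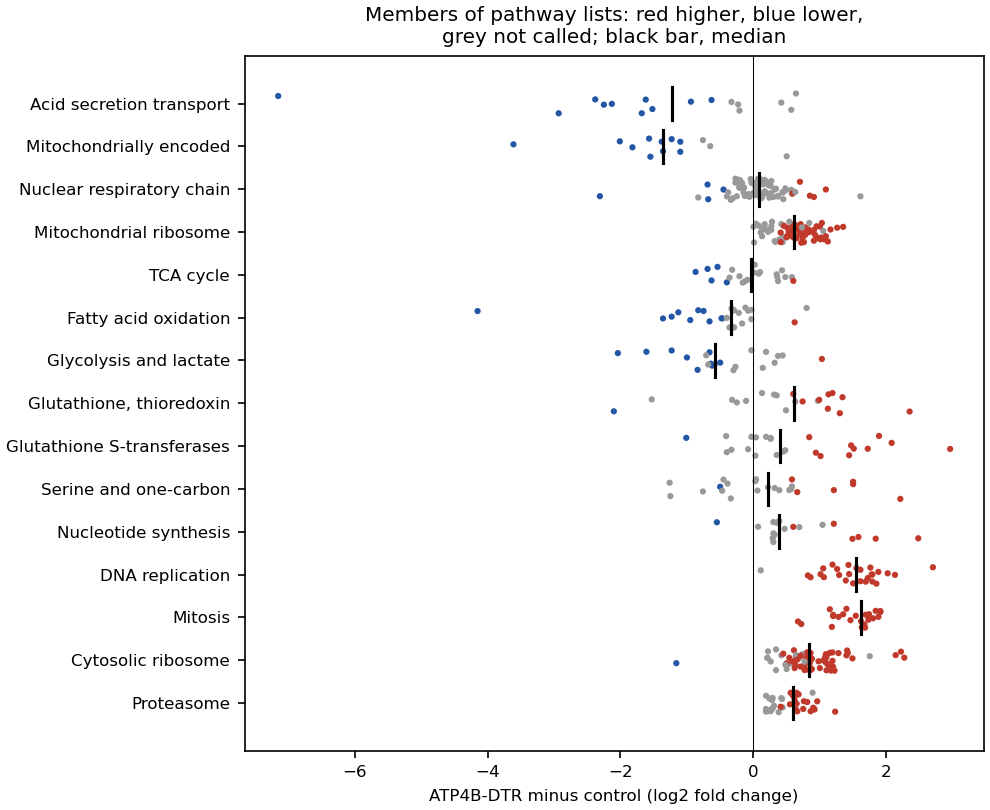
Log2 fold change of every tested member of 15 lists in ATP4B-DTR against both controls, with each point a gene (red higher, blue lower, grey not called) and a black bar at the median. Mitochondrially encoded genes lie mostly to the left of the nuclear respiratory chain genes, and the DNA replication and mitosis genes lie to the right of 0.

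Genes for the use of fuels were lower in several branches. Of 25 tested fatty acid oxidation genes 9 were lower (36%, next to 9.39% of all genes) and 1 higher (median -0.33). With control 1 alone 9 were lower (median -0.52) and against control 2 alone 6 (median -0.19). Cd36, which takes up fatty acids at the cell surface, fell from 198 and 196 CPM to 8.61, 12.3 and 12.2 CPM (log2 fold change -4.15 ± 0.26 (SE), adjusted p = 2.43e-05), a 17.8-fold lower level with no overlap. Within the cell, the carrier Fabp3 (log2 fold change -1.36, adjusted p = 0.00126), the activating enzyme Acsl1 (-1.23, adjusted p = 0.000336), the mitochondrial entry enzyme Cpt1a (-1.13, adjusted p = 0.00204) and the medium-chain dehydrogenase Acadm (-0.95, adjusted p = 0.00292) fell by less than Cd36. The electron transfer flavoprotein subunit Etfb was the member that was higher (0.62, adjusted p = 0.0247). Oxct1, the enzyme that lets cells burn ketone bodies, fell from 1172 and 1041 CPM to 304, 314 and 355 CPM (log2 fold change -1.77 ± 0.21 (SE), adjusted p = 0.000411).

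In the TCA cycle and pyruvate dehydrogenase list 5 of 22 tested genes were lower (22.7%, next to 9.39% of all genes) and 1 higher, with a median of -0.04. Idh2, a mitochondrial isocitrate dehydrogenase (log2 fold change -0.87, adjusted p = 0.00295), and Sdha, the succinate dehydrogenase flavoprotein (-0.69, adjusted p = 0.0047), were lower by less than 2-fold. Pdk4, the kinase that shuts pyruvate out of the cycle, fell from 119 and 104 CPM to 15.7, 41.2 and 28.2 CPM (log2 fold change -1.98 ± 0.34 (SE), adjusted p = 0.00338). Its relatives Pdk1 and Pdk3 had log2 fold changes of -0.1 and 0.03 and were not called. In glycolysis and lactate handling 9 of 21 genes were lower (42.9%) and 1 higher (median -0.58). They included Pfkfb3, which makes the activator of phosphofructokinase (-1.61, adjusted p = 0.00078), the phosphofructokinase Pfkl (-0.84, adjusted p = 0.00154) and the lactate dehydrogenase subunit Ldhb (-1.23, adjusted p = 0.00318). Against control 2 alone 5 of the 21 were lower and against control 1 alone 8, and without ATP4B-DTR 1 there were 5. The count of lower TCA genes was between 2 and 3 against either control alone and without ATP4B-DTR 1 or 2.

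Some glutathione genes were higher and catalase was lower. Of 20 tested glutathione and thioredoxin genes 9 were higher (45.0%) and 1 lower. Gclc and Gclm, the subunits of the enzyme that limits glutathione synthesis, rose from 165 and 118 CPM to 348, 341 and 281 CPM (log2 fold change 1.19 ± 0.22 (SE), adjusted p = 0.00378) and from 104 and 86.3 CPM to 226, 229 and 173 CPM (log2 fold change 1.13 ± 0.18 (SE), adjusted p = 0.00181). Gss, which completes the tripeptide, rose by a similar amount (log2 fold change 1.34, adjusted p = 0.00151), and Gpx2, an epithelial glutathione peroxidase, rose from 81.7 and 57.7 CPM to 435, 450 and 183 CPM (log2 fold change 2.35 ± 0.36 (SE), adjusted p = 0.00181). Srxn1, which repairs peroxiredoxins, was higher too (1.3, adjusted p = 0.00259). Catalase (Cat), the peroxisomal enzyme that destroys hydrogen peroxide, fell from 298 and 280 CPM to 53.2, 71 and 77.4 CPM (log2 fold change -2.1 ± 0.17 (SE), adjusted p = 7.37e-05). The groups did not overlap in these 6 genes, nor did they in 48.5% of all genes tested. Nqo1, which shares its control by the factor NRF2 with Gclc and Srxn1, was not called (log2 fold change 0.49, adjusted p = 0.297). Glutathione S-transferases had 10 of 24 higher and 1 lower, led by Gstm3 (2.96, adjusted p = 0.00085) and Mgst1 (2.08, adjusted p = 0.000451), but near-identical copies within this family can share reads. With control 1 alone 5 genes of the first list and 6 transferases were higher.

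Some serine, one-carbon and nucleotide genes were higher. Of 23 tested genes for serine, one-carbon units and the integrated stress response 6 were higher (26.1%, next to 12.2% of all genes) and 1 lower (median 0.22), with 4 higher against control 1 alone and 4 against control 2 alone. Mthfd1l, which makes formate in mitochondria, rose from 2.65 and 2.77 CPM to 13.8, 12.2 and 11.7 CPM (log2 fold change 2.21 ± 0.29 (SE), adjusted p = 0.000808), and the serine synthesis enzymes Psat1 (log2 fold change 1.5, adjusted p = 0.00328) and Phgdh (1.5, adjusted p = 0.0276) rose as well. In nucleotide synthesis 6 of 19 genes were higher, among them Rrm2, Tyms, Tk1 and Rrm1. Rrm2, the regulated subunit of ribonucleotide reductase, rose from 10.8 and 10.6 CPM to 68.7, 42.9 and 67.5 CPM (log2 fold change 2.48 ± 0.27 (SE), adjusted p = 0.000336). The purine enzyme Paics was the 1 gene that was lower (-0.55, adjusted p = 0.0236), and the pyrimidine enzyme Cad was not called (0.3, adjusted p = 0.541). The products of Rrm1, Rrm2, Tyms and Tk1 supply DNA precursors.

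Among 320 tested genes of transcription factor families 38 were higher (11.9%) and 30 lower (9.38%), near the shares of all genes tested. Against control 1 alone 11 were higher and 18 lower, and against control 2 alone 26 and 19. The families leave out some factors, such as Dmbx1 and Zbtb16 below. Of their members, 21 were called against both controls and against each alone, 9 higher and 12 lower. The furthest down of these was Esrrb, an estrogen-related receptor, at 14 and 12 CPM in the controls and 0.559, 0.351 and 0.704 CPM in ATP4B-DTR (log2 fold change -4.58 ± 0.46 (SE), adjusted p = 0.000187). Its relatives behaved differently: Esrrg read 454 and 417 and 268, 278 and 354 CPM and was not called (log2 fold change -0.54, adjusted p = 0.0889), and Esrra was higher (0.56, adjusted p = 0.0305). Perm1, a muscle-type regulator that works with these receptors and the coactivator Ppargc1a, fell from 18.6 and 14.9 CPM to 1.21, 2.06 and 2.44 CPM (log2 fold change -3.13 ± 0.35 (SE), adjusted p = 0.000336). Ppargc1a itself, known for raising mitochondrial genes, was higher, at 24.4 and 25.4 CPM and 64.8, 46.9 and 68 CPM (log2 fold change 1.27 ± 0.32 (SE), adjusted p = 0.0173). The 3 ATP4B-DTR samples lay on the same side of both controls in each called gene here, as they did in 48.5% of all genes tested. The short motif that these receptors bind, written TNAAGGTCA with N for any base and searched on both strands of RefSeq promoters (GRCm38.p6), was in 1 of the 8 acid secretion transport promoters found, that of Kcnj16, and in 0 of 7 receptor, 0 of 22 fatty acid oxidation and 0 of 12 mitochondrial biogenesis promoters. It was in 0.957% of 11282 tested genes with a promoter, in 1.53% of those called higher and in 1.03% of those called lower. A match is a run of letters and not a measured site, and its absence says nothing of the receptors. In Kcnj16 it lies on the reverse strand of this window, in capitals, which is shown because Kcnj16 is also among the lower genes.
Kcnj16 (chr11:110967823-110967871, gene on the plus strand, match 190 bases before the start): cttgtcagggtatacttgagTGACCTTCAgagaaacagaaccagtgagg

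Other lower factors belonged to several families. Klf15 fell from 40.5 and 50.8 CPM to 12.8, 9.39 and 15.9 CPM (log2 fold change -1.85 ± 0.22 (SE), adjusted p = 0.00048), and Klf9 fell less (log2 fold change -1.34, adjusted p = 0.00146). Epas1, the hypoxia-inducible factor 2 alpha subunit, fell from 95.9 and 91.4 CPM to 22.7, 30.2 and 37.4 CPM (log2 fold change -1.64 ± 0.25 (SE), adjusted p = 0.00174). The fatty acid receptor Ppara was lower by less (-1.1, adjusted p = 0.0442). Dmbx1, a homeobox factor, fell from 12.1 and 7.15 CPM to 0.0466, 0.351 and 0.414 CPM (log2 fold change -5.11 ± 0.81 (SE), adjusted p = 0.00198), and Zbtb16, a zinc finger factor, was 21.6-fold lower. The secretory pathway factor Creb3l2 was lower (-1.88, adjusted p = 0.00292), alongside Herpud1, a component of endoplasmic reticulum quality control (-1.53, adjusted p = 0.000581). Of 26 tested genes for folding and stress in that compartment 5 were lower (19.2%, next to 9.39% of all genes) and 1 higher, and 3 were lower against control 2 alone.

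The factors that rose were of other kinds. Cebpb rose from 11.6 and 8.98 CPM to 37.6, 42.4 and 31.4 CPM (log2 fold change 1.85 ± 0.25 (SE), adjusted p = 0.000877), and Cebpa with it (log2 fold change 1.29, adjusted p = 0.000788). Myb, a factor of progenitor cells, rose from 1.66 and 1.5 CPM to 11.4, 6.36 and 8.2 CPM (log2 fold change 2.45 ± 0.36 (SE), adjusted p = 0.00127), and Tead2, a partner of YAP, from 1.71 and 3.05 CPM to 16.1, 9.0 and 7.83 CPM (log2 fold change 2.21 ± 0.38 (SE), adjusted p = 0.00275). The foregut factors Sox2 (1.34, adjusted p = 0.0145) and Sox9 (1.07, adjusted p = 0.0409) were higher, but neither was called against each control alone. Of 23 tested factors and genes of development and injury plasticity 8 were higher and 1 lower (2 higher against control 1 alone, 5 against control 2 alone and 5 without ATP4B-DTR 1), among them Hmga1 (1.58, adjusted p = 0.00091), Atf3 (1.25, adjusted p = 0.0159) and Krt7, a ductal keratin that rose from 5.25 and 6.99 CPM to 111, 70.5 and 62.5 CPM (log2 fold change 3.73 ± 0.57 (SE), adjusted p = 0.00259).

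**Figure D4:**
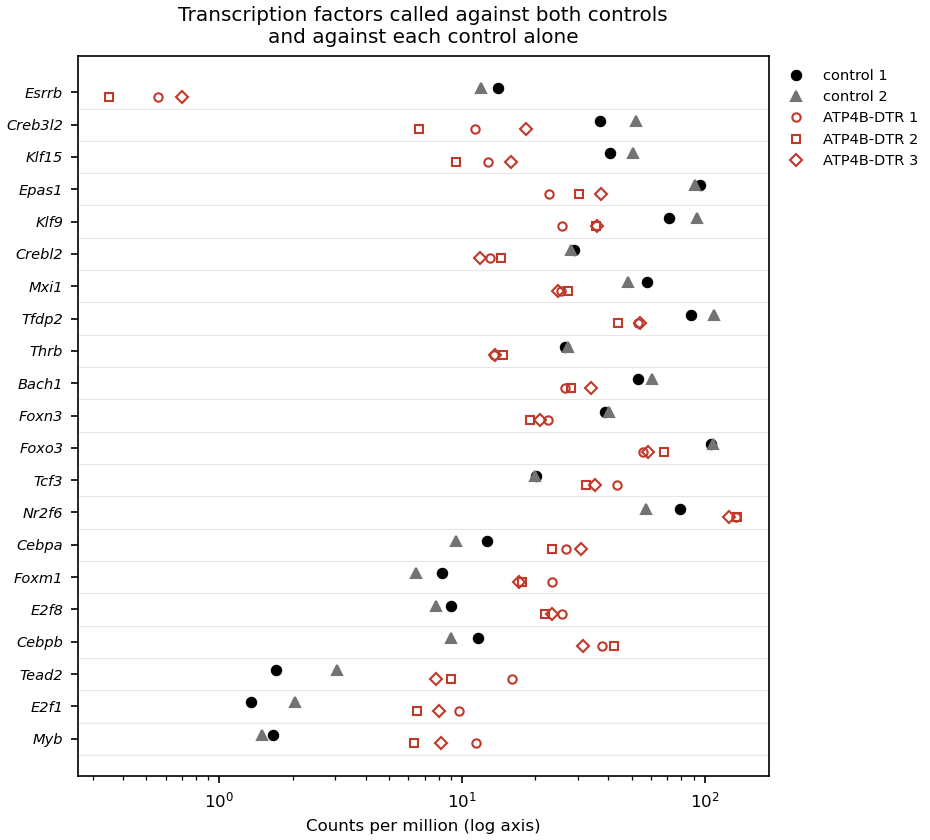
Levels in CPM (log axis) of the 21 members of the transcription factor families that were called against both controls and against each control alone, with controls in black and grey and ATP4B-DTR samples as open red symbols. For each factor the 3 red symbols lie on one side of both controls, with Esrrb at one end and Myb at the other.

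Nearly all DNA replication and mitosis genes on the lists were higher, while of 16 cell cycle inhibitors and G1 cyclins 4 were higher (25%, next to 12.2% of all genes) and 1 lower (median 0.19). Of 27 tested DNA replication genes 26 were higher, with a median log2 fold change of 1.55, and of 23 mitosis genes 23 were higher, with a median of 1.62. Ccne1, the cyclin that starts replication, rose from 1.17 and 1.83 CPM to 9.96, 7.11 and 12 CPM (log2 fold change 2.7 ± 0.34 (SE), adjusted p = 0.000574), and Mcm5, a subunit of the replicative helicase, from 14.2 and 11.9 CPM to 49.3, 35.9 and 49.4 CPM (log2 fold change 1.78 ± 0.24 (SE), adjusted p = 0.000836). Ccnb1, the mitotic cyclin, rose from 18 and 12.6 CPM to 55.9, 43.1 and 42.7 CPM (log2 fold change 1.62 ± 0.26 (SE), adjusted p = 0.00201). Each ATP4B-DTR sample was above both controls, and Gins3, a helicase accessory subunit, was the replication gene not called (log2 fold change 0.11, adjusted p = 0.826). Against control 1 alone 22 replication and 15 mitosis genes were higher, and against control 2 alone 23 and 23.

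Of 13 tested E2F and MYB family genes, some of which drive these genes in S phase, 6 were higher and 1 lower, with 3 higher against control 1 alone. E2f1 rose from 1.35 and 2.05 CPM to 9.68, 6.54 and 7.99 CPM (log2 fold change 2.25 ± 0.31 (SE), adjusted p = 0.00094), and E2f8, an E2F repressor, rose (log2 fold change 1.5, adjusted p = 0.00309). Rbl1, a pocket protein that binds E2F, was higher (1.1, adjusted p = 0.00284) and its relative Rbl2 lower (-1.51, adjusted p = 0.000188). The inhibitor Cdkn1a was not called (-0.35, adjusted p = 0.343). The promoters of the replication genes, from 250 bases before to 50 after the start (RefSeq, GRCm38.p6), were searched on both strands for the E2F letters TTTGGCGC and TTTCCCGC, chosen after the expression values had been seen. Promoters matched for 22 of the 27 genes, and 9 of the 22 (40.9%) held at least 1 match, next to 3.12% of 11282 tested genes with a promoter and 1.80% of 27025 genes. The share was 5.62% among promoters of genes called higher and 2.24% among those of genes called lower. The mitosis genes held 0 in 18 promoters. The windows below show matches that lie before the start, with the match in capitals; Gins3 is shown because it holds a match and was not called.
Mcm5 (chr8:75109340-75109387, gene on the plus strand, match 149 bases before the start): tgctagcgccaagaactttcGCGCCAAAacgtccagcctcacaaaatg
Mcm6 (chr1:128359725-128359772, gene on the minus strand, match 47 bases before the start): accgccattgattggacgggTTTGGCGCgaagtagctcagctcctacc
Pola1 (chrX:93632266-93632313, gene on the minus strand, match 138 bases before the start): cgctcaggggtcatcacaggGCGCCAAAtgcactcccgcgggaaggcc
Mcm7 (chr5:138172021-138172068, gene on the minus strand, match 165 bases before the start): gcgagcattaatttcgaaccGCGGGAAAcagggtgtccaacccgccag
Cdc6 (chr11:98907993-98908040, gene on the plus strand, match 138 bases before the start): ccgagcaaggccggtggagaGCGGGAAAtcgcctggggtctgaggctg
Gins3 (chr8:95633498-95633545, gene on the plus strand, match 41 bases before the start): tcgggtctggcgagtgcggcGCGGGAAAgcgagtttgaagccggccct
The first 3 windows hold TTTGGCGC and the last 3 TTTCCCGC, on one strand or the other. Mcm6 rose by 1.29, Pola1 by 1.76, Mcm7 by 1.44 and Cdc6 by 1.05 on the log2 scale.

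Ribosome and proteasome genes rose by small amounts in large numbers. Of 76 tested cytosolic ribosomal proteins 60 were higher and 1 lower (median 0.83), of 78 mitochondrial ribosomal proteins 49 were higher and 0 lower (0.61), and of 37 proteasome subunits 21 were higher and 0 lower (0.59). Many of these counts rested on control 2: against control 1 alone 21, 10 and 3 genes were higher. The summed length of all exons of a gene moved with these results. In the tercile of genes with the shortest summed length 17.5% of genes were higher and 5.87% lower. In the longest tercile 7.4% were higher and 13.9% lower. Of 66 cytosolic ribosomal genes with a known length 56 lay in the shortest tercile, as did 21 of 32 proteasome genes and 41 of 70 mitochondrial ribosomal genes, and the part of length in their counts was not tested. One of the features found in the controls alone, Rps6-ps4, is a ribosomal pseudogene, and the summed level of 286 ribosomal pseudogenes was 2380 and 2030 CPM in the controls and between 2240 and 2880 CPM in ATP4B-DTR. Of 27 complex I genes with a known length 22 also lay in the shortest tercile. Of 36 tested complex I subunits 3 were higher (8.33%) and 2 lower (5.56%), with a median of 0.12. Of 23 replication genes 6 lay in the shortest tercile and 4 in the longest.

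Most SPEM genes and some genes of epithelial defence were higher. Of 14 tested SPEM genes 9 were higher and 0 lower (median 1.66), and of 17 epithelial defence genes 5 were higher and 0 lower, with 3 higher against control 1 alone. Dmbt1, a secreted mucosal defence protein, rose from 50 and 38 CPM to 751, 455 and 582 CPM (log2 fold change 3.76 ± 0.43 (SE), adjusted p = 0.000451), and Gkn3, a gastrokine, from 10.3 and 27.6 CPM to 183, 113 and 151 CPM (log2 fold change 2.98 ± 0.74 (SE), adjusted p = 0.0234). Pigr, the receptor that carries immunoglobulin A across the epithelium, rose from 35.6 and 18 CPM to 540, 275 and 117 CPM (log2 fold change 3.53 ± 0.8 (SE), adjusted p = 0.0162), while the immunoglobulin genes themselves fell. ATP4B-DTR 1 was the highest sample in all 3 genes, and Gkn3 and Pigr were not called against each control alone. Cd44, a surface receptor used as a SPEM marker, was higher (1.24, adjusted p = 0.0276), and Tff2, the spasmolytic polypeptide, was not called, at 1138 and 723 CPM in the controls and 597, 780 and 1361 CPM in ATP4B-DTR (log2 fold change -0.03 ± 0.37 (SE), adjusted p = 0.967). Against control 1 alone 5 of the 14 genes were higher and against control 2 alone 6.

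The other large rises were mixed in kind and often uneven between the ATP4B-DTR samples. Khdc1a, a KH domain protein known from oocytes, had 2 and 0 counts in the controls and 32.4, 25.2 and 6.96 CPM in ATP4B-DTR (adjusted p = 0.0168). Sftpd, the collectin surfactant protein D, stood at 0.359 and 0.111 CPM and at 18.1, 13.4 and 3.69 CPM (log2 fold change 5.55 ± 1.09 (SE), adjusted p = 0.00745), and Reg3g, an antimicrobial lectin, at 1.39 and 0.333 CPM and at 35.3, 18 and 6.5 CPM (log2 fold change 4.48 ± 0.84 (SE), adjusted p = 0.00577). In these 3 genes, which the rule for the largest changes took only if the groups did not overlap, ATP4B-DTR 3 was the lowest of its group. Krt13, a keratin of squamous epithelium, read 0.943 and 0.277 CPM and 13.4, 20.2 and 2.11 CPM, while 5 of the 8 squamous markers searched for, Krt5 and Trp63 among them, had 0 counts in all 5 samples. Ly6k was 34.4-fold higher, Clca4a 13.6-fold, the meiotic cohesin Rec8 14.8-fold, the glycoprotein-binding Nccrp1 10.8-fold, the cytochrome Cyp2d26 11.4-fold and the lipid regulator Angptl8 11.4-fold. Against control 1 alone Khdc1a (adjusted p = 0.116), Sftpd (0.0718), Krt13 (0.107), Ly6k (0.0512), Clca4a (0.063) and Nccrp1 (0.135) did not pass.

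Of 9 tested chief cell genes 1 was called (11.1% lower, next to 9.39% of all genes), and 8 had a negative log2 fold change. Gif, intrinsic factor, read 702 and 2303 CPM in the controls and 824, 332 and 755 CPM in ATP4B-DTR (log2 fold change -1.24 ± 0.7 (SE), adjusted p = 0.245), with overlapping groups. Pgc, a pepsinogen, read 70812 and 154891 CPM and 49436, 13978 and 30755 CPM (log2 fold change -1.85 ± 0.83 (SE), adjusted p = 0.142). ATP4B-DTR 2 was the lowest sample in both, and control 2 the highest. The gene that was called was Adgrg2, an adhesion receptor (log2 fold change -1.55, adjusted p = 0.0032). Of 6 tested mucous neck genes 2 were lower (33.3%, next to 9.39% of all genes) and 0 higher. Their median log2 fold change was -0.09, and 2 of the 6 were positive. Among mucous neck genes Muc6, the gland mucin, fell from 384 and 333 CPM to 28, 90.6 and 77 CPM (log2 fold change -2.46 ± 0.52 (SE), adjusted p = 0.0102), and Galnt6, which starts mucin sugar chains, fell too (-1.35, adjusted p = 0.0153). Fut9, a fucosyltransferase of Lewis X structures, was also lower (-2.83, adjusted p = 0.0002). Of 10 pit cell genes 0 were called by edgeR (2 had an unadjusted p under 0.05, and the DESeq2 Wald test called 2), and Muc5ac, the surface mucin, read 13836 and 7818 CPM and 1624, 5277 and 5679 CPM (log2 fold change -1.37 ± 0.47 (SE), adjusted p = 0.0613). The endocrine granule gene Chgb rose from 9.52 and 20.3 CPM to 148, 54.2 and 140 CPM (log2 fold change 2.94 ± 0.7 (SE), adjusted p = 0.0186), but was not called against either control alone (adjusted p = 0.0562 and 0.0956), and Chga (1.25, adjusted p = 0.121) and somatostatin (Sst, 0.34, adjusted p = 0.662) were not called. The tuft cell genes Gnat3 (1.68, adjusted p = 0.0174) and Pou2f3 (1.25, adjusted p = 0.0357) were the 2 of 10 that were higher (20%, next to 12.2% of all genes). The median of the 10 was -0.01, with 5 positive and 5 negative log2 fold changes.

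Stromal and immune lists depended on which control was used. The fibroblast list had a median log2 fold change of 1.75 against control 1 alone and of -1.32 against control 2 alone, and the macrophage list of 2.14 and -0.84. Col3a1, a fibrillar collagen, read 11.4 and 171 CPM in the controls and 106, 42.2 and 131 CPM in ATP4B-DTR, so that all 3 samples lay between the controls. Isg15, an interferon-induced protein, read 54.3 and 3.94 CPM and 37, 55.6 and 88 CPM, with control 2 alone at a low level. Against both controls 0 of 9 fibroblast, 0 of 9 smooth muscle, 0 of 9 endothelial and 0 of 13 macrophage genes were called by edgeR, with an unadjusted p under 0.05 for 0, 0, 2 and 0 of them, and the DESeq2 Wald test called 0, 0, 1 and 0. A pair of collagen chains of basement membranes was called against each control: Col4a3 fell from 15.7 and 15 CPM to 1.44, 0.219 and 1.41 CPM (log2 fold change -3.9 ± 0.6 (SE), adjusted p = 0.00174), and Col4a4 fell with it (log2 fold change -3.7, adjusted p = 0.000463).

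**Figure D5:**
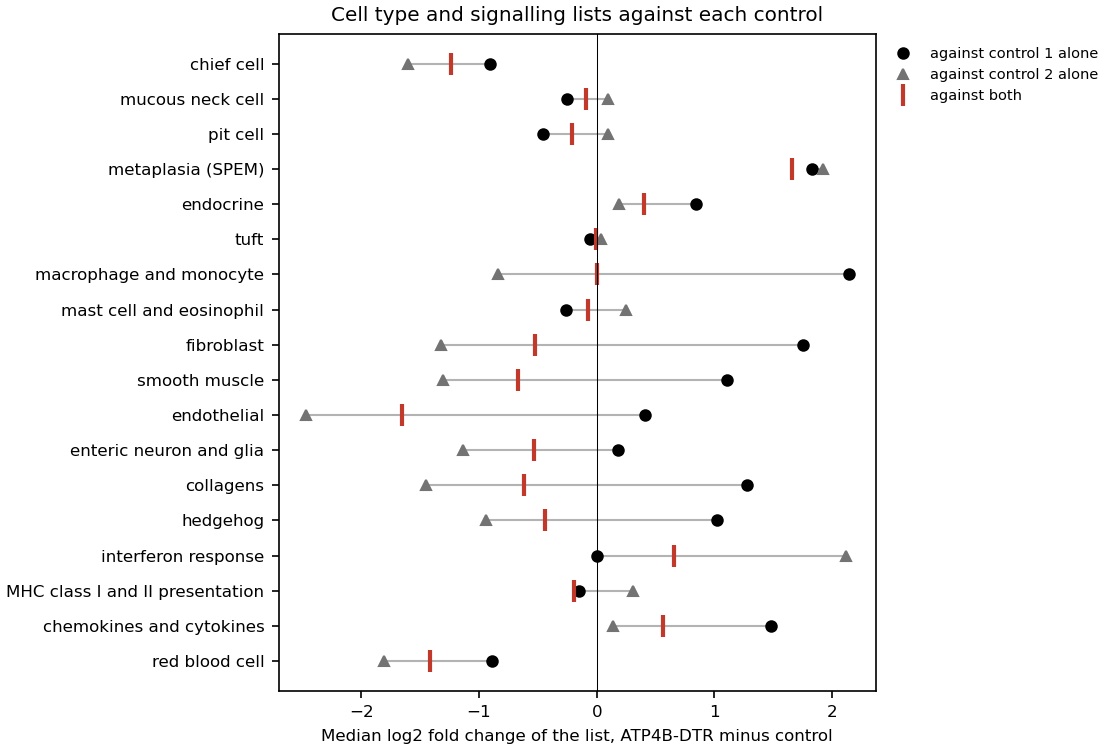
Median log2 fold change of 18 cell type and signalling lists against control 1 alone (black circles), control 2 alone (grey triangles) and both (red bars). The fibroblast, smooth muscle, endothelial, collagen, hedgehog and macrophage medians lie on opposite sides of 0 for the 2 controls, while the SPEM medians lie close together.

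Signals between cells changed in single genes. In the EGF family the fall of Egf stood beside uncalled values for Tgfa (log2 fold change -0.39, adjusted p = 0.32), Areg (0.63, adjusted p = 0.386) and Hbegf (0.55, adjusted p = 0.365), and Epgn, with 3 and 0 counts in the controls, read 0.512, 1.23 and 0.994 CPM in ATP4B-DTR (adjusted p = 0.0267). Vegfb, a vascular growth factor, fell from 56.6 and 55.4 CPM to 25, 15.5 and 23 CPM (log2 fold change -1.4 ± 0.25 (SE), adjusted p = 0.00319), and Vegfa fell by less (-0.53, adjusted p = 0.0298). Of 23 WNT genes 3 were higher (13%, next to 12.2% of all genes) and 1 lower, and against control 1 alone 2 were higher and against control 2 alone 0. They include Ascl2, a WNT target of stem cells, at 0.18 and 0.388 CPM in the controls and 3.54, 1.36 and 1.53 CPM in ATP4B-DTR (log2 fold change 2.92 ± 0.73 (SE), adjusted p = 0.0165). Shh, a signal known to be made by parietal cells, was not called and its groups overlapped (0.47, adjusted p = 0.398). Of 27 chemokines and cytokines 5 were higher (18.5%, next to 12.2% of all genes) and 0 lower, with 3 higher against control 1 alone, 2 against control 2 alone, 3 without ATP4B-DTR 2 and 2 with the Y-linked covariate. Cxcl10, which draws T cells, rose from 0.494 and 1.16 CPM to 12.1, 10.6 and 14.2 CPM (log2 fold change 3.92 ± 0.88 (SE), adjusted p = 0.0143), and Lif, a cytokine of the interleukin 6 family, from 0.269 and 0.721 CPM to 3.26, 5.44 and 3.23 CPM (log2 fold change 3.03 ± 0.52 (SE), adjusted p = 0.00273). Only Lif of these 2 was called against each control alone.

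The direct comparison with GIF-DTR, whose receptor carries the name of the chief cell gene for intrinsic factor, called 73 of 14889 genes (0.49%), with 13 higher and 60 lower in ATP4B-DTR. The split was unstable: 75 were higher and 65 lower without ATP4B-DTR 3, 2 and 15 without ATP4B-DTR 1 and likewise without ATP4B-DTR 2, and 170 and 213 with the DESeq2 Wald test. Without GIF-DTR 1, 2 or 3 in turn 3, 6 and 1 were higher and 26, 42 and 21 lower. Slc26a7 read 0.233, 0.395 and 0.911 CPM in ATP4B-DTR and 31.4, 22.9 and 17.9 CPM in GIF-DTR (log2 difference -5.51 ± 0.54 (SE), adjusted p = 0.00272), so that both lines lay below the controls and ATP4B-DTR lay lower. Atp4b was lower in ATP4B-DTR as well (log2 difference -2.22 ± 0.35 (SE), adjusted p = 0.0248), and Atp4a was not called (-1.0 ± 0.29 (SE), adjusted p = 0.217). Among metabolic genes Cd36 (-2.39, adjusted p = 0.00161), Cox7a1 (-2.08, adjusted p = 0.0103), Slc2a4 (-2.13, adjusted p = 0.0048), Perm1 (-1.76, adjusted p = 0.0364) and Esrrb (-3.25, adjusted p = 0.00688) were lower in ATP4B-DTR. Gclc (1.06, adjusted p = 0.0364) and the cystine carrier Slc7a11 (2.46, adjusted p = 0.0193) were higher. For Slc7a11 the controls were at 35.3 and 21.1 CPM, the ATP4B-DTR samples at 57.2, 73.9 and 34.9 CPM and the GIF-DTR samples at 7.85, 14.9 and 7.3 CPM, so that GIF-DTR lay below the controls and ATP4B-DTR 3 between them. Some other metabolic genes that were lower than in the controls overlapped between the lines. Pdk4 read 15.7, 41.2 and 28.2 CPM in ATP4B-DTR and 13.5, 24.4 and 16.1 CPM in GIF-DTR. Cpt1a read 121, 151 and 153 CPM in ATP4B-DTR and 126, 162 and 140 CPM in GIF-DTR. The replication gene Mcm5 read 49.3, 35.9 and 49.4 CPM in ATP4B-DTR and 43.8, 56.1 and 66.7 CPM in GIF-DTR and was not called (log2 difference -0.31 ± 0.2 (SE), adjusted p = 0.672).

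Some of the named calls rested on single libraries. The genes Ascl2, Cdc6, Chgb, Clca1, Cxcl10, Gkn3, Gmps, Khdc1a, Paics, Pou2f3, Ppara, Ppargc1a, Slc19a1, Slc1a5, Slc40a1, Sox2, Sox9 and Vegfa passed the test against neither control alone, with adjusted p between 0.0511 and 0.17 against control 1 and between 0.053 and 0.182 against control 2. Cd44, Galnt6, Kcnj15, Phgdh and Slc12a2 were called against control 1 alone and not against control 2 (adjusted p between 0.0585 and 0.163). The reverse held for Atf3, Epgn, Esrra, Etfb, Gnat3, Pigr and Slc16a1, besides the 3 immunoglobulin-related genes and the 5 large rises named above (adjusted p between 0.0512 and 0.255 against control 1). Without ATP4B-DTR 1 the calls of Cd44, Cdc6, Gkn3, Gmps, Igha, Igkc, Nccrp1, Phgdh, Pou2f3, Ppara, Ppargc1a, Slc19a1, Slc40a1, Sox9 and Vegfa ended (adjusted p between 0.0528 and 0.121). Without ATP4B-DTR 2 those of Epgn, Esrra, Etfb, Igha, Igkc, Jchain, Nccrp1, Paics, Pou2f3, Ppara, Sox9 and Vegfa ended (0.053 to 0.107), and without ATP4B-DTR 3 those of Cdc6, Igha, Jchain and Vegfa (0.0579 to 0.0766). Each of these genes kept the sign of its log2 fold change.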

How the data were processed

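Bulk RNA sequencing of corpus mucosa gave 11 libraries, grouped by genotype label. Libraries were made with a stranded mRNA kit (TruSeq), per the labels' protocols. The authors deposited expected counts per gene as estimated by their quantification, as the fractional values show, and the genome build was mm10, per the submitters' processing notes. The aligner and quantifier are not given in the sources used here. The tests had been planned for whole counts, so the expected counts were rounded. Of 34866 identifiers 99.2% had a symbol, and coordinates come from GENCODE M21. The number of sample columns left unused was 0.

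Genes were kept by filterByExpr, which left 14889, and 12307 had 0 counts everywhere. edgeR 4.0.16 in R 4.3.3 fitted a robust quasi-likelihood model with TMM scaling to all 11 samples, with 1 coefficient per genotype and no covariate (common biological coefficient of variation 26.6%). P-values are two-sided and adjusted by Benjamini-Hochberg over all genes tested, and an adjusted p under 0.05 is called higher or lower. The SE is the size of the log2 fold change divided by the square root of F. Levels of 3 counts cover counting error only, since PCR copies are not independent molecules. Against 1 control alone the fit left out the other control. Alternatives were DESeq2 1.42.0 size factors and Wald test, scaling without the 50 most abundant genes, a fit of only the 2 groups, no robust moderation, a minimum of 10 counts in all samples, no filter, a Y-linked index (Ddx3y, Eif2s3y, Uty, Kdm5d) as covariate, and each control and ATP4B-DTR sample left out in turn. Leaving out each GIF-DTR sample, for the comparison with GIF-DTR, was chosen after seeing the data, and the GIF/ATP4B-DTR samples stayed in these fits. The scripts were tested on simulated data. Same-numbered samples were not paired.

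The members and gene lists were chosen with earlier results of these data known, so list counts and medians are descriptions. Named genes are list or family members, plus the 15 highest and 15 lowest fold changes among called genes with a mean of at least 8 CPM in the higher group, no overlap of samples, fractional counts in at most 5 samples and a symbol that is no gene model or pseudogene. Some list members that were counted are not reported here by name.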

Additional observations from a re-analysis of the deposited data

How the results depend on the processing

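Under every alternative run, the 145 named genes called against both controls kept the sign of their log2 fold change, and 105 of them kept their call wherever a value could be had. The edgeR fit of all 11 samples without a covariate called 3211 genes in ATP4B-DTR against control, 56.5% of them higher. Each alternative gave a new total over the genes tested in it. The total was 1960 with the Y-linked index as covariate. It was between 1315 (without control 2, 41.2% of them higher) and 2923 with a control or ATP4B-DTR sample left out. These totals do not say how many of the 3211 genes were called again. In that covariate fit ATP4B-DTR 1 is the one sample of its group that shares Y-linked expression with the controls. The 559 called members of lists and families became between 277 and 531 with a sample left out. Of the 30 genes with the largest changes, between 19 and 28 were called with a sample left out, and 8 could be tested and were called with at least 10 counts in every sample. The 73 genes between ATP4B-DTR and GIF-DTR became 383 with the DESeq2 Wald test, 21 with the Y-linked index as covariate, and between 17 and 140 with an ATP4B-DTR or GIF-DTR sample left out, the highest without ATP4B-DTR 3. Another 7 named genes that were not called passed the test under some alternative, and the sign of 11 uncalled genes turned under some alternative. The cause of these shifts was not tested. No paired analysis was possible because the ATP4B-DTR labels carry no replicate numbers. With 2 controls, the spread within the control group rests on 1 difference, and genes near 3 counts per library could not be ranked by fold.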

Other observations

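A list of enzymes for the breakdown of the branched-chain amino acids leucine, isoleucine and valine was put together after the values had been seen, and its counts are a description with no test of the list. Of 25 tested members 17 were lower in ATP4B-DTR and 0 higher, with a median log2 fold change of -0.83, and of -0.88 and -0.79 against control 1 and control 2 alone. Over all genes tested 9.39% were lower. The members span the pathway. Bckdha, a subunit of the dehydrogenase that commits the 3 amino acids to breakdown, fell from 241 and 233 CPM to 79.2, 63.9 and 70.3 CPM (log2 fold change -1.74 ± 0.27 (SE), adjusted p = 0.00174). In the isoleucine branch Acadsb fell from 334 and 335 CPM to 61.1, 44.2 and 57.5 CPM (log2 fold change -2.62 ± 0.24 (SE), adjusted p = 0.000125), in the leucine branch Mccc1 from 201 and 170 CPM to 47.7, 49.7 and 58.9 CPM (log2 fold change -1.83 ± 0.19 (SE), adjusted p = 0.000213), and in the valine branch Aldh6a1 from 471 and 439 CPM to 102, 118 and 176 CPM (log2 fold change -1.79 ± 0.23 (SE), adjusted p = 0.000644). The groups did not overlap in these genes, nor did they in 48.5% of all genes tested. Dld (0.08, adjusted p = 0.737) and Hibch (0.02, adjusted p = 0.962) were not called. In the direct comparison with GIF-DTR Acadsb (-1.44, adjusted p = 0.0179) and Mccc1 (-0.94, adjusted p = 0.0364) were also lower in ATP4B-DTR.

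Lpl, the lipase that releases fatty acids from circulating triglyceride, was picked out after its values were seen. It read 577 and 510 CPM in the controls and 21.6, 22.6 and 21.7 CPM in ATP4B-DTR (log2 fold change -4.63 ± 0.21 (SE), adjusted p = 1.24e-06), and the ATP4B-DTR samples lay within a narrow range far below both controls. Kit, a receptor tyrosine kinase, picked out in the same way, read 82.1 and 89.1 CPM and 14.9, 9.0 and 12 CPM (log2 fold change -2.84 ± 0.23 (SE), adjusted p = 7.37e-05).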
